A study of Mus musculus with 10 samples.

Results

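Imprinted genes carry a mark of the parent they came from, so that in most tissues only the maternal or only the paternal copy is transcribed. The mark is DNA methylation laid down in the germ line at control regions, and it is kept after fertilisation by the zinc finger protein ZFP57, its partner TRIM28 and the maintenance methyltransferase DNMT1. Many imprinted genes control fetal growth and are strongly expressed in embryonic mesenchyme. 10 of them were followed here in mouse embryonic fibroblasts driven towards pluripotency: H19, Igf2, Nnat, Mest, Ndn, Peg3, Dlk1, Meg3, Grb10 and Plagl1. They were chosen by name, as imprinted genes with strong expression, with earlier results of these data known. Their shares of calls are therefore set beside those of all genes as description only. All were found by symbol among the 54752 genes of each table. All 10 were among the 12752 genes that passed the filter on low counts. H19, Meg3 and Grb10 are usually read from the maternal copy in such tissues and the other 7 from the paternal copy, and the files hold no allele counts, so every value below is the sum of both copies.

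The cells were fibroblasts from E13.5 embryos, used at passage 2. The embryos came from 129S4/SvJaeJ females crossed with CBA/CaJ x C57BL/6J males that carried an Oct4-GFP reporter. Every culture, D0 included, had been infected for 48 hours with retroviruses for 4 transcription factors, Jdp2, Sall4, Esrrb and Glis1, so no uninfected control stands in the comparisons. The cells were then kept in a medium named iCD3 for 0, 24, 72, 120 or 168 hours, here D0, D1, D3, D5 and D7. 10 libraries were compared, 2 for each day, which carry the replicate numbers 1 and 2, and the series describes them as coming from 2 independent experiments. The sources used here do not give the number or sex of the embryos, nor whether they were pooled. The p-values measure the spread between the libraries alone, part of which may be technical. Bulk RNA does not tell fewer cells of a type from less RNA per cell.

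Library totals ran from 1329377 to 4335931 expected counts, and the 10 genes together took 0.7055% to 1.714% of them. The 15 fibroblast markers summed to between 14190 and 16050 CPM (counts scaled by library size to 1e6) at D0 and to between 3465 and 5086 CPM at D1 and to between 1023 and 1437 CPM at D7. The 16 pluripotency markers went from 16.63 to 32.93 CPM at D0 to between 84.67 and 171.3 CPM at D1 and between 1685 and 2164 CPM at D7. 5 of the 13 tested fibroblast markers were called lower at D1 than at D0 (edgeR, adjusted p under 0.05), against 2.12% of all tested genes. At D7 against D0 11 were called lower, against 8.71% of all tested genes. The 12 epithelial markers summed to between 107.6 and 160.2 CPM at D0, between 418.7 and 688 CPM at D1 and between 538.2 and 598.2 CPM at D7, and Cdh1, the epithelial cadherin, was 6.096-fold higher at D1 than at D0 (edgeR adjusted p = 0.00269). Summed neural markers went from between 381.6 and 464 CPM at D0 to between 210.6 and 240.7 CPM at D1 and between 186.6 and 188.4 CPM at D7, and skeletal muscle markers from between 247.1 and 348 CPM to between 33.17 and 74.71 CPM and then between 30.67 and 48.62 CPM. Most of the neural sum at D0 was Nes and Ncam1. Most of the skeletal muscle sum at D0 was Des, at a mean of 254.8 CPM, and Acta1, at 39.06 CPM. Tnnt1 went the other way, from 0 at D0 to a mean of 8.848 CPM at D7. Endothelial markers went from between 21.04 and 28.44 CPM to between 132 and 136 CPM, with Pecam1, which mouse pluripotent cells also express, reaching 68.96 CPM. Pecam1, Cdh5 (mean 13.21 CPM at D7), Tie1 (8.304), Tek (8.18) and Esam (6.535) were called higher at D7 than at D0. All lay under 5.45 CPM, the level of the filter on low counts, in both D0 libraries. Their number is therefore not read against the share of all genes. Kdr was not called, and Emcn and Erg were not tested. Trophoblast and yolk sac markers went from between 36.69 and 48.65 CPM to between 107 and 112.4 CPM. The sum of adipocyte markers stayed between 27.08 and 64.08 CPM and that of macrophage and blood markers between 6.186 and 27.89 CPM in all libraries. Within the adipocyte sum Cebpa was lower at D7 than at D0 (means 6.224 and 29.68 CPM, edgeR adjusted p = 0.0324). Lpl was higher (32.42 and 6.793 CPM, 0.00891). Olig2, Prl3d1, Cfd and Hbb-bt were at 0 in every library, and Myod1, Myf5, Neurod1 and Elf5 never passed 1 CPM. The part these cell types have in the changes below was not tested.

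Promoter sequence was at hand for 9 of the 10 genes (all but H19), in 16 windows of 250 bases upstream of RefSeq transcript starts (GRCm38.p6). The windows were searched on both strands for TGCCGC, the hexamer that ZFP57 binds when its CpG is methylated, and for GCCATNTT, a core motif of YY1, which is known for clusters of sites in the first intron of Peg3. TGCCGC stood in 4 of the 16 windows, in 3 genes (Mest, Meg3 and Plagl1), against 8.68% of all 32851 windows of the table. 2 of the 4 are Mest windows that almost coincide and hold the same matches, so 3 separate windows carry it. GCCATNTT was in none of the 16, against 3.91% of all windows. 12 of the 16 windows held more CpG dinucleotides than the median window, which held 6, and 3 held more than the upper quartile of 16. 4 windows are shown, those of the genes whose course through the days stands out below: Nnat and Mest, which were called higher at D7 than at D0, and Meg3 and Peg3, which were low at D1 and high again at D7. They are read 5′ to 3′ on the strand of the gene, with TGCCGC (or GCGGCA, the same hexamer on the other strand) in capitals.
Nnat, chr2:157559828-157560077, plus strand, 12 CpG: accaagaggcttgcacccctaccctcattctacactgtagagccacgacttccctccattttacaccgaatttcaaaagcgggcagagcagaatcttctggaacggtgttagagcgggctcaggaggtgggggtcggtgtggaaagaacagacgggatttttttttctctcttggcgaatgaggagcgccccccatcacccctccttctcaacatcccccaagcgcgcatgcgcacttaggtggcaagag
Mest, chr6:30737800-30738049, plus strand, 14 CpG: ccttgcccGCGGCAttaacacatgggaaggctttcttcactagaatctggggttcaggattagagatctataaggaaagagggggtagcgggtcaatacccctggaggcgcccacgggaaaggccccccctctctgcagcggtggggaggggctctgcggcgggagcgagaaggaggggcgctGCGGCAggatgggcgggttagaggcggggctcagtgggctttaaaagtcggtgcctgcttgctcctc
Meg3, chr12:109540746-109540995, plus strand, 10 CpG: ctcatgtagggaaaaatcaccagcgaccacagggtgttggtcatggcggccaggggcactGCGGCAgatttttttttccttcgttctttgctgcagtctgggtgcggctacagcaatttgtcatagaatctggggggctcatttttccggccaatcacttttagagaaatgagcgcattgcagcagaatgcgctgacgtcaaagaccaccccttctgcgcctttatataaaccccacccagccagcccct
Peg3, chr7:6730420-6730669, minus strand, 8 CpG: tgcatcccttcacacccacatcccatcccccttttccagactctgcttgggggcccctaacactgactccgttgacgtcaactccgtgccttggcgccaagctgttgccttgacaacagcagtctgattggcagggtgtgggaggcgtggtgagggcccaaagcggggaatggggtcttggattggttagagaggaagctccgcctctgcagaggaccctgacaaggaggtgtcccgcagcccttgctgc
The Mest window shown, 1 of 3, held the hexamer at 2 places, and the Meg3 window shown, 1 of 2, at 1 place. The window of the upstream Mest start and that of the downstream Meg3 start had none, and the Nnat and Peg3 windows had no match to either motif. A match is a stretch of letters in this window, and no binding or methylation was measured.

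On the scale that allows levels of different genes to be compared, TPM (transcripts scaled by length and library), H19 and Igf2 stood far above the other 8. At D0 H19 was at 5604 ± 434.9 TPM (SD, n = 2) and Igf2 at 3116 ± 737.5 TPM. Dlk1 (382.9 ± 72.05), Grb10 (323.9 ± 27.93) and Meg3 (261.7 ± 33.38) followed, then Mest (87.71 ± 20.78), Peg3 (83.09 ± 11.07), Plagl1 (39.13 ± 0.6718), Ndn (31.49 ± 6.187) and Nnat (18.74 ± 2.291). The libraries of Dlk1 and Grb10 overlapped at D0, as did those of Mest and Peg3, so these neighbours had no order beyond their spread. H19 ranked between place 8 and place 29 of all genes by TPM in the 10 libraries, and Igf2 between place 22 and place 201. At D7 H19 (4586 ± 2009 TPM) and Igf2 (1071 ± 605.1 TPM) still led. Mest (361.5 ± 131.3) was then the third, followed by Meg3 (241.5 ± 75.38), Nnat (235.9 ± 69.3), Grb10 (179.8 ± 40.52) and Dlk1 (158.5 ± 99.85), each of which overlapped with the next. Peg3 (66.97 ± 19.7) and Plagl1 (49.53 ± 5.367) also overlapped, and Ndn was lowest at 7.64 ± 0.5091 TPM. Nnat had moved from the last place at D0 to the third at D1, where it stood at 129.3 ± 24.11 TPM, level with Dlk1 at 129.3 ± 34.65 TPM. It kept the third place at D3 (268.6 ± 27.58 TPM) and D5 (331.9 ± 70.07 TPM).

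**Figure D1:**
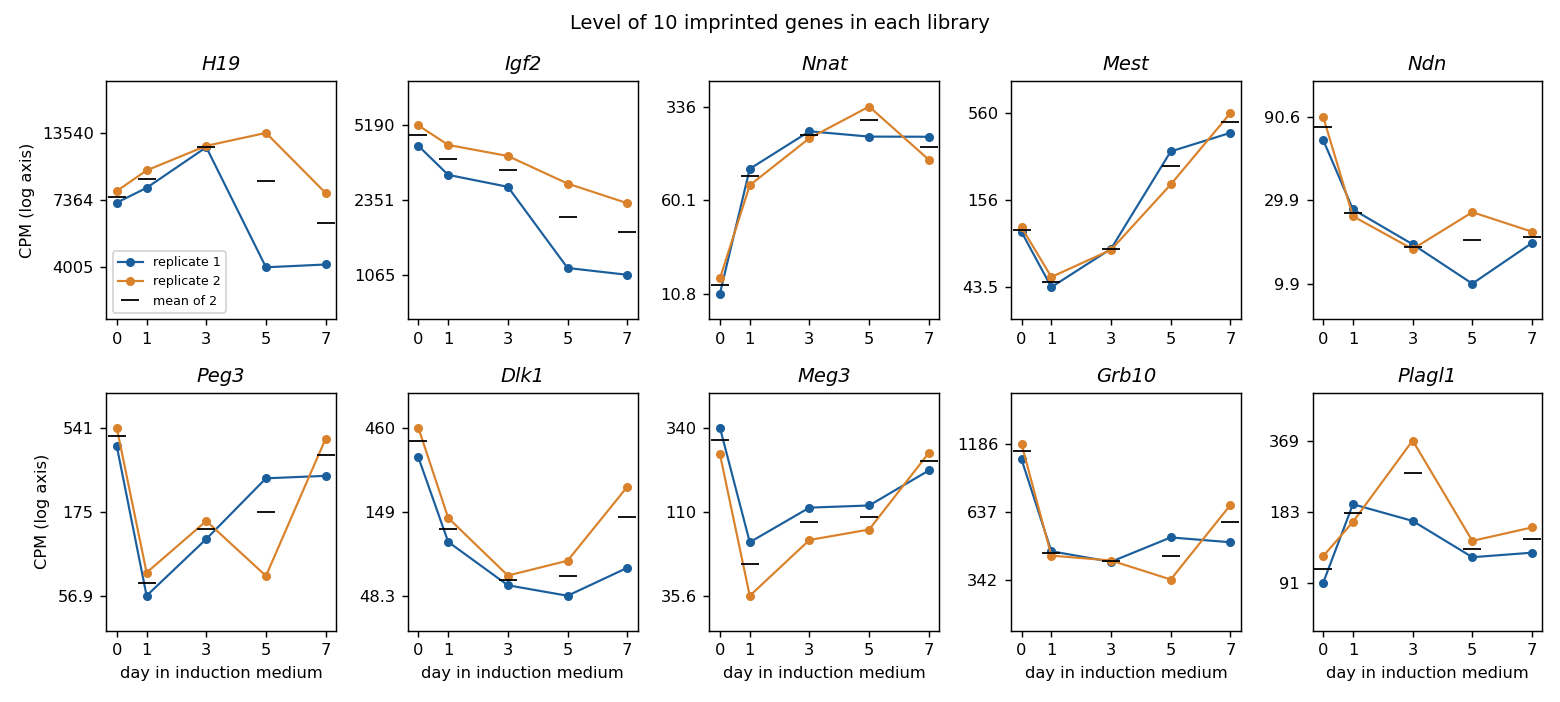
Level of each of the 10 genes in CPM (log axis, ticks at the lowest level, the geometric middle and the highest level) against the day in iCD3 medium, with 1 line per replicate number and a dash for the mean of the 2 libraries. Nnat is lowest at D0, Mest is lowest at D1 and highest at D7, Peg3 and Meg3 dip at D1, and H19 and Peg3 have their 2 libraries far apart at D5.

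More of the 10 genes were called over the first day in the medium than over any later step between neighbouring days. In the D1 against D0 comparison 5 of the 10 passed an adjusted p of 0.05 in edgeR's quasi-likelihood test, against 4.52% of all tested genes. 1 of the 10, Nnat, was higher (2.41% of all genes were), and 4, Peg3, Meg3, Grb10 and Ndn, were lower (2.12%). The median log2 change of the 10 was -1.23, against 0.01 over all tested genes. The sums of fibroblast, skeletal muscle and neural markers were lower and that of epithelial markers higher in both D1 libraries than in both D0 libraries, as given above, and their part in these changes was not tested. With the replicate number as a block Mest and Dlk1 were called lower too, which makes 7 of 10 against 10.6% of all genes. None of the 10 was called from D1 to D3 (0.0549% of all genes were), from D3 to D5 (0.0706%) or from D5 to D7 (0%). At an unadjusted p under 0.05 those steps had 2, 2 and 3 of the 10, DESeq2 called 0, 1 and 0, the replicate block 0, 1 (Mest, against 3.3% of all genes) and 0, and limma on log2(TPM + 1) called 0 in each. The whole course, D7 against D0, had 4 of 10 called against 17.9% of all genes, Nnat and Mest higher (9.15% of all genes) and Ndn and Dlk1 lower (8.71%), with a median log2 change of -0.39 against 0.06 over all genes. With the block it had 6 against 28.5%, Igf2 and Grb10 being added as lower. D7 against D3 had 1 called (Mest, higher) against 5.37% of all genes, and 6 with the block against 18.4%. The 5 added by the block were Meg3 (adjusted p = 0.0129), Dlk1 (0.0307) and Peg3 (0.0485), higher, and Igf2 (0.0225) and Plagl1 (0.0489), lower. D7 against D1, a comparison added after the values had been seen that shares the D1 libraries with D1 against D0, had 3 called, all higher (Mest, Peg3 and Meg3), against 11.5% of all genes in both directions and 6.18% higher, and 4 against 24.1% with the block. Over any difference among the 5 days 7 were called against 19.1% of all genes, and 9 against 34.9% with the block, which added Igf2 (adjusted p = 0.00276, against 0.144 without it) and Plagl1 (0.0186, against 0.0955) and left H19 as the exception. The D1 calls depend on the spread at D0 and D1: leaving out D0 replicate 1 ended all 5 calls at D1 against D0, 1 call (Nnat) was left without D1 replicate 2, and without D1 replicate 1 or D0 replicate 2 there were 2. D7 against D0 kept 2 calls without D0 replicate 2 or D7 replicate 1, D7 against D1 kept 1 without D1 replicate 2 or D7 replicate 2, and the 5 days together kept 3 without D0 replicate 2. D7 against D3 kept none without either D3 library and had 2 without either D5 library, D5 against D3 had 1 without D5 replicate 2, and D7 against D5 had 1 without D5 replicate 1.

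**Figure D2:**
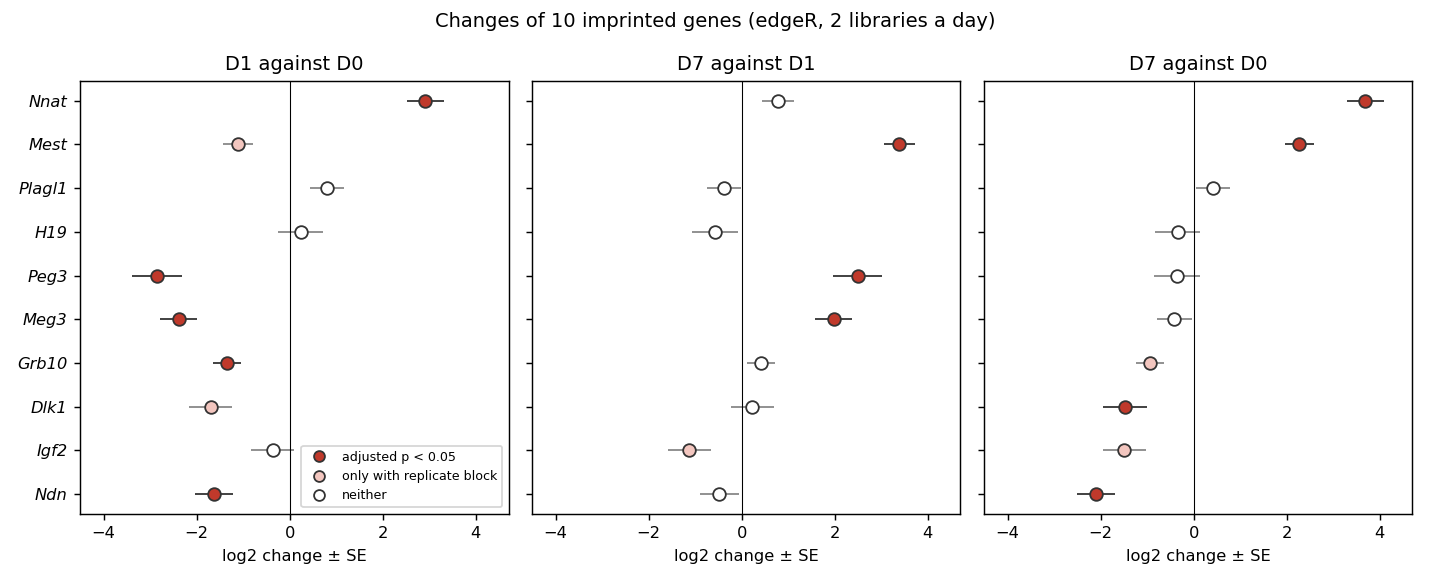
Log2 change of each of the 10 genes with its standard error (horizontal lines) in 3 comparisons; filled points passed an adjusted p of 0.05, pale points passed it only with the replicate block, open points in neither fit. Nnat lies to the right at D1 and D7 against D0, whereas Peg3 and Meg3 lie to the left at D1 against D0 and to the right at D7 against D1, comparisons that share the D1 libraries.

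Igf2, the fetal growth factor that signals through the type 1 IGF receptor, and H19, a long noncoding RNA, lie 72622 bases apart on chromosome 7 and share enhancers, and an insulator that is methylated on the paternal copy sets which of them is read. Igf2 (ENSMUSG00000048583, chr7:142650766-142666816, minus strand) stood at 4179, 3071, 2706, 1145 and 1065 CPM in replicate 1 at D0, D1, D3, D5 and D7. In replicate 2 it stood at 5190, 4218, 3752, 2801 and 2275 CPM. Each day was below the day before in both replicates, and both D7 libraries lay below both D0 libraries. D7 against D0 gave a log2 change of -1.49 ± 0.47 (SE), which missed the threshold at an adjusted p of 0.0508. With the replicate block it was -1.58 with an adjusted p of 0.00108, so the call depends on whether the libraries are paired. D7 against D1 likewise passed only with the block (-1.20, adjusted p = 0.0079). The change within replicate 1 was -1.97 and within replicate 2 -1.19 on the log2 scale.

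H19 (ENSMUSG00000000031, chr7:142575529-142578143, minus strand) was not called in any comparison, with or without the block. It stood at 7197, 8227, 11890, 4005 and 4108 CPM in replicate 1 and at 7991, 9638, 12040, 13540 and 7850 CPM in replicate 2. The replicates were alike to D3 and apart at D5, where 1 library held the lowest and the other the highest level of all 10. D7 against D0 gave -0.35 ± 0.49 (adjusted p = 0.686), and D7 against D3 set a mean of 5979 CPM against one of 11960 CPM (adjusted p = 0.253, and 0.0537 with the block). The ratio of H19 to Igf2 within a library, in TPM, was 2.04 and 1.62 at D0 in replicates 1 and 2. It was 3.35 and 2.31 at D1, 5.39 and 3.39 at D3, 4.56 and 4.30 at D5, and 4.92 and 4.01 at D7. Every later library was thus above both D0 libraries, although at D5 the level of H19 itself differed more than 3-fold between replicates. The ratio was described after its values were seen and was not tested. Over the 10 libraries the log2 CPM of H19 and Igf2 had a Pearson r of 0.702. RSEM's mean length for Igf2 transcripts was longer in replicate 1 (2479.3 to 2665.5 bases) than in replicate 2 (1831.6 to 2352 bases), and the TPM ratio carries that difference.

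**Figure D3:**
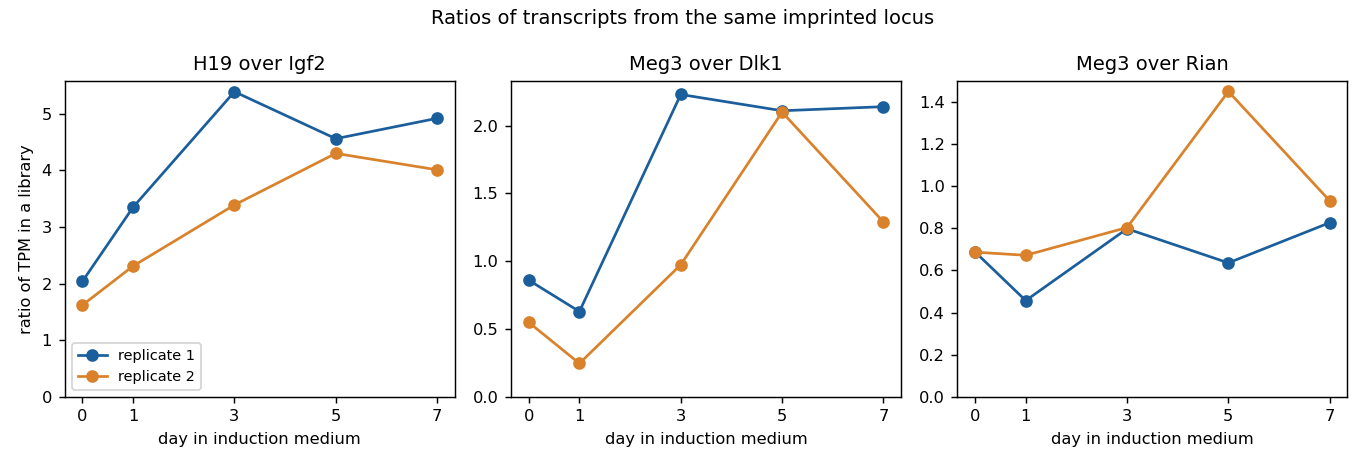
Ratio of the TPM of 2 transcripts from the same locus (vertical axis, from 0) against the day in iCD3 medium, 1 line per replicate number. H19 over Igf2 lies above both D0 libraries, 2.04 and 1.62, on every later day. Meg3 over Dlk1 is lowest at D1 within each replicate, 0.629 and 0.246, although D0 replicate 2, at 0.549, lies below D1 replicate 1. Meg3 over Rian lies between 0.457 and 0.931 in every library but D5 replicate 2, at 1.45 (1.05 as a ratio of CPM).

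2 further transcripts of the locus peaked between D0 and D7. Ins2, an insulin gene, was at 11.25 and 2.245 CPM at D0 and at 144.6 and 137.8 CPM at D3 in replicates 1 and 2. It was at 38.41 and 294.6 CPM at D5, where replicate 2 was highest, and at 10.88 and 23 CPM at D7. It differed among the days (adjusted p = 0.0113). Igf2os, the antisense transcript that overlaps Igf2 over 7124 bases, was at 86.03 and 181.1 CPM at D3 and at 19.14 and 24.31 CPM at D7, a fall of 2.62 on the log2 scale (adjusted p = 0.0378). The sources used here do not say whether the counting kept the strands apart, so reads of Igf2 and Igf2os may not be fully separated. Igf2os lies far below Igf2 in every library.

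Of the wider IGF system, 21 of 24 listed genes were tested at D7 against D0, and 2 rose while 7 fell. The median log2 change was -0.70 against 0.06 over all tested genes. The largest fall was that of Pappa, a protease that frees IGFs from binding protein 4, by 4.60 on the log2 scale (adjusted p = 0.000223). Pappa was at 51.37 and 38.92 CPM at D0 and at 1.74 and 1.971 CPM at D7. Pappa and Igfbp6 lay under the filter's level of 5.45 CPM in both D7 libraries. They were tested only through the earlier days where they were high, so the counts are not read against the share of all tested genes. Igf1r, the main signalling receptor of Igf2, fell from 221.6 and 223 CPM to 38.5 and 57.82 CPM (log2 change -2.22, adjusted p = 0.00098). 5 other secreted proteins fell: the binding proteins Igfbp4 (-1.73, adjusted p = 0.00905), Igfbp5 (-1.62, 0.00339), Igfbp6 (-3.22, 0.0348) and Igfbp7 (-3.13, 0.00907), and the protease Htra1 (-2.43, 0.0257). Igfbp2 rose from 193.7 and 201.3 CPM to 465.7 and 638 CPM (1.48, adjusted p = 0.0119). Igf1 rose by D1 already, from 12.23 and 10.48 CPM to 66.03 and 61.19 CPM (2.47, adjusted p = 0.00303), and was at 28.06 and 24.97 CPM at D7 (1.22 against D0, adjusted p = 0.0346). Igf2r, the receptor that clears Igf2 and is imprinted itself, was at 628.7 and 746.9 CPM at D0 and at 339.1 and 506 CPM at D7 and was not called, also with the block.

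Grb10, an adaptor that binds the insulin and IGF1 receptors and restrains growth, is read from the maternal copy in fibroblasts. Grb10 (ENSMUSG00000020176, chr11:11930508-12038683, minus strand) stood at 1030, 443.7, 402.9, 503.6 and 481.8 CPM in replicate 1 and at 1186, 426.2, 407.6, 342.5 and 678.1 CPM in replicate 2. Both D0 libraries were above all 8 later ones. It fell by 1.35 ± 0.30 on the log2 scale from D0 to D1 (adjusted p = 0.0277). That call was lost without any single D0 or D1 library (adjusted p 0.119 to 0.206) and in limma on log2(TPM + 1) (0.0513). At D7 against D0 it was -0.94 ± 0.30 (adjusted p = 0.0513, and 0.0166 with the replicate block). Its neighbour Cobl took another course and rose from 3.425 and 5.239 CPM at D0 to 34.59 and 47.31 CPM at D7 (3.25, adjusted p = 0.00199).

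Dlk1 and Meg3 lie 77664 bases apart on chromosome 12 and share a control region that is methylated on the paternal copy. Dlk1, read from the paternal copy, codes for a transmembrane protein with EGF repeats that holds back adipocyte differentiation, and Meg3 and the further noncoding RNAs Rian and Mirg are read from the maternal copy. Dlk1 (ENSMUSG00000040856, chr12:109452823-109463336, plus strand) was at 309.7, 99.51, 55.6, 48.31 and 70.26 CPM in replicate 1 and at 460.3, 137.3, 63.34, 77.32 and 208.3 CPM in replicate 2. Every later library lay below both D0 libraries, and at D7 the replicates were nearly 3-fold apart. At D1 the log2 change against D0 was -1.70 ± 0.47 (adjusted p = 0.0713, and 0.00266 with the block). At D7 it was called lower at -1.48 ± 0.47, with an adjusted p of 0.0498 and, with the block, 0.0015. That call rests on the edge of the threshold: it was lost without 7 of the 10 libraries (all but D5 replicates 1 and 2 and D7 replicate 2, with an adjusted p of up to 0.289 without D7 replicate 1), under RLE scaling (0.0561), under the stricter filter (0.0536), with only the D0 and D7 libraries (0.0504) and in limma (0.0509).

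Meg3 (ENSMUSG00000021268, chr12:109541001-109571726, plus strand) was lowest at D1, still below both D0 libraries at D3 and D5, and higher again at D7. It stood at 340, 73.03, 116.2, 119.6 and 191.4 CPM in replicate 1 and at 238, 35.57, 75.26, 86.6 and 242.5 CPM in replicate 2. D1 held the lowest library of each replicate, and both D1 libraries lay below all others. Meg3 fell by 2.39 ± 0.40 on the log2 scale from D0 to D1 (adjusted p = 0.00725) and was higher at D7 than at D1 by 1.97 ± 0.40 (adjusted p = 0.0119). D7 did not differ from D0 beyond the threshold (-0.42 ± 0.38, adjusted p = 0.505). The D1 call was lost without D0 replicate 1 (adjusted p = 0.0768) or D1 replicate 2 (0.0598), and the later gain without D1 replicate 2 (0.0957), D7 replicate 1 (0.0517) or D7 replicate 2 (0.0575).

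Rian, the maternal RNA beyond Meg3, was also low at D1. It stood at 415.4 and 285.2 CPM at D0, 154 and 51.94 CPM at D1 and 208.6 and 244.4 CPM at D7. Its change from D0 to D1 was -1.75 ± 0.52 (adjusted p = 0.0918, and 0.004 with the block). Mirg went from 13.21 and 14.22 CPM to 4.26 and 0.7115 CPM and was not called (adjusted p = 0.122, and 0.0558 with the block). The ratio of Meg3 to Rian in TPM stayed between 0.457 and 0.931 in 9 libraries and was 1.45 in D5 replicate 2. The ratio of Meg3 to Dlk1 in TPM was 0.86 and 0.549 at D0, 0.629 and 0.246 at D1, 2.23 and 0.974 at D3, 2.11 and 2.10 at D5, and 2.14 and 1.29 at D7. All 6 libraries from D3 on were above both D0 libraries, also as ratios of CPM. RSEM's mean length for Meg3 transcripts was 966.01 bases in D5 replicate 2 and at least 1366.3 bases in every other library. The TPM ratios carry that difference. As ratios of CPM, Meg3 to Dlk1 was 2.48 and 1.12 at D5, and Meg3 to Rian was 1.05 in D5 replicate 2. Dio3 and Rtl1, at the far end of the cluster, did not pass the filter on low counts.

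Peg3, a paternally read zinc finger protein, behaved much as Meg3 did although it lies on another chromosome. Peg3 (ENSMUSG00000002265, chr7:6703892-6730431, minus strand) was at 423.2, 56.91, 121.7, 274.7 and 283.9 CPM in replicate 1 and at 541.1, 77.55, 155, 74.23 and 467.8 CPM in replicate 2. Both D1 libraries were low, and D5 replicate 2 was as low as they were while D5 replicate 1 was not. Peg3 fell by 2.85 ± 0.54 on the log2 scale from D0 to D1 (adjusted p = 0.0135), and was 2.49 ± 0.53 higher at D7 than at D1 (adjusted p = 0.0152). D7 against D0 was -0.36 ± 0.50 (adjusted p = 0.676). The D1 call was lost without any single D0 or D1 library (adjusted p 0.0588 to 0.139), and the later gain without D1 replicate 1 (0.102), D1 replicate 2 (0.0706) or D7 replicate 2 (0.0691). Without D5 replicate 1 Peg3 was also called higher at D7 against D5 (2.36, adjusted p = 0.0356). Zim1, a maternally read zinc finger gene of the same cluster, was at 36.69 and 21.7 CPM at D0, 4.26 and 0.7115 CPM at D1 and 21.32 and 24.97 CPM at D7. It fell by 3.32 from D0 to D1 (adjusted p = 0.0224) and was 2.96 higher at D7 than at D1 (adjusted p = 0.0223), on 15 expected counts over both D1 libraries. Usp29, which shares the promoter region of Peg3, stayed at or under 20.01 CPM and was not called in either of these comparisons (at D7 against D1 adjusted p = 0.0947, and 0.0198 with the block).

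Mest and Nnat were the 2 of the 10 genes called higher at D7 than at D0. Mest (ENSMUSG00000051855, chr6:30723547-30748465, plus strand), also called Peg1, codes for a membrane enzyme of the hydrolase kind that marks embryonic mesoderm. It stood at 97.85, 43.52, 76.38, 319.1 and 419.2 CPM in replicate 1 and at 104.8, 50.51, 75.26, 196.4 and 560.5 CPM in replicate 2. The D1 libraries were lower than those at D0 and the 4 D5 and D7 libraries were higher than all others. Its D1 change was -1.11 ± 0.31 on the log2 scale (adjusted p = 0.0774, and 0.0255 with the block). Mest then gained 2.69 ± 0.32 from D3 to D7 (adjusted p = 0.00663) and 3.38 ± 0.33 from D1 to D7 (0.00157), which left D7 at 2.27 ± 0.31 above D0 (0.000927). The last 2 stayed called when each of the 10 libraries was left out in turn, whereas D7 against D3 was lost without D3 replicate 1 (0.0539) or D3 replicate 2 (0.0905). From D3 to D5 alone the change was 1.77 (adjusted p = 0.0829, and 0.00668 with the block). Mest has several promoters, and RSEM's mean transcript length for it moved between 1244.7 and 2567.5 bases over the libraries, so its TPM carries a shift in the estimated mix of transcripts as well as in number. Copg2, which overlaps Mest tail to tail over 912 bases, was at 34.74 and 42.66 CPM at D0 and 82.66 and 65.71 CPM at D7 (0.95, adjusted p = 0.0797, and 0.0301 with the block).

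Nnat (ENSMUSG00000067786, chr2:157560078-157562522, plus strand) codes for a small membrane protein of the endoplasmic reticulum known from the developing brain, and lies wholly inside Blcap, a gene on the opposite strand. It stood at 10.76, 106.8, 213, 193.2 and 192.7 CPM in replicate 1 and at 14.22, 78.97, 187.8, 335.6 and 126.2 CPM in replicate 2. Both D0 libraries lay far below all later ones, on 22 and 19 expected counts. Nnat rose by 2.91 ± 0.40 on the log2 scale from D0 to D1 (adjusted p = 0.00269) and was 3.69 ± 0.41 above D0 at D7 (0.000292). The D7 call held when each of the 10 libraries was left out in turn (adjusted p up to 0.00728), and the D1 call was lost only without D0 replicate 1 (0.0558). Blcap was between 20.88 and 55.14 CPM in all libraries and was not called at D1 or D7 against D0 (0.26 and -0.74, adjusted p = 0.836 and 0.229). While Nnat rose, the sum of the neural markers was lower at D7 than at D0, as given above. Of the 6 neural markers tested 1 was called higher and 2 lower, against 9.15% and 8.71% of all tested genes. Nes (mean 193 CPM at D0 and 37.46 CPM at D7) and Ncam1 (173.3 and 37 CPM), the bulk of that sum at D0, were lower. Stmn2 went the other way, from 16.44 to 67.33 CPM. The remaining tested markers were not called. Of these, Tubb3 (10.79 CPM at D0 and 21.48 CPM at D7) and Gfap (0.2446 and 1.423 CPM) had higher means at D7. Map2 (26.31 and 10.14 CPM) had a lower one. The part of neural cells in the course of Nnat was not tested.

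Ndn (ENSMUSG00000033585, chr7:62346569-62350262, plus strand), a MAGE family protein that restrains cell division and lies in the Prader-Willi region, went the opposite way to Nnat. It was at 66.54, 26.47, 16.68, 9.904 and 16.97 CPM in replicate 1 and at 90.56, 24.19, 15.65, 25.52 and 19.71 CPM in replicate 2. Every later library lay below both D0 libraries. Ndn fell by 1.62 ± 0.41 from D0 to D1 on the log2 scale (adjusted p = 0.0477) and was 2.10 ± 0.41 lower at D7 than at D0 (0.00586). The D1 call was lost without 8 of the 10 libraries (all but the D5 replicates, adjusted p up to 0.31) and in limma (0.0759), and the D7 call without D7 replicate 1 (0.071) or D0 replicate 2 (0.0536). Of the 5 tested neighbours none was called at D1 or D7 against D0. Atp10a was closest to the course of Ndn, at 17.12 and 35.18 CPM at D0 and 9.571 and 2.628 CPM at D7 (-1.96, adjusted p = 0.0813, and 0.0286 with the block). Snrpn was at 30.82 and 32.93 CPM at D0 and at 57.21 and 52.57 CPM at D7 (0.79, adjusted p = 0.123). Magel2, beside Ndn, did not pass the filter on low counts.

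Plagl1 (ENSMUSG00000019817, chr10:13060504-13131694, plus strand), a zinc finger transcription factor also called Zac1, was at 91, 197.2, 167.4, 117.2 and 122.5 CPM in replicate 1 and at 118.3, 165.8, 368.8, 137.6 and 157 CPM in replicate 2. All 6 libraries of D1, D3 and D7 were above both D0 libraries, and D3 replicate 2 was the highest. No step was called: D1 against D0 gave 0.80 ± 0.37 (adjusted p = 0.307) and D7 against D0 0.42 ± 0.37 (0.495). With the block it differed among the 5 days (adjusted p = 0.0186, against 0.0955 without) and was lower at D7 than at D3 (-0.88, 0.0489).

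**Figure D4:**
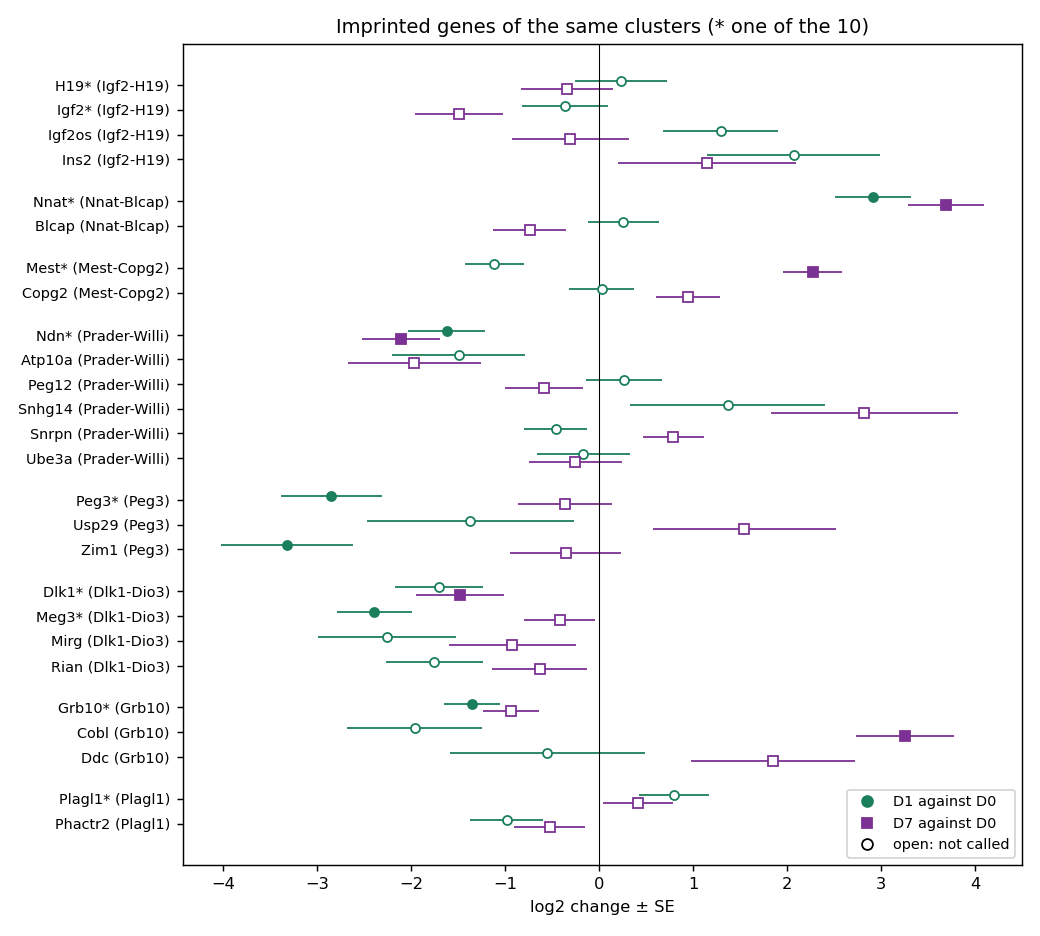
Log2 change with its standard error (horizontal lines) of the 10 genes (marked with a star) and of the tested imprinted genes of their clusters, at D1 (circles) and D7 (squares) against D0; filled symbols passed an adjusted p of 0.05. Zim1 lies with Peg3, and Rian and Mirg with Meg3, to the left at D1, while Cobl lies far to the right of Grb10 at D7.

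Among the 77 other imprinted genes that were listed, 74 were found and 53 tested, Ins2 and Igf2r of the IGF list among them. At D7 against D0 7 of the 53 were called higher and 1 lower. 3 of the 7 (Cobl, Kcnq1 and Phlda2) lay under 5.45 CPM, the level the filter asks for in at least 2 libraries, in both D0 libraries. They were tested only through the later days where they were high, so the counts are not read against the 9.15% and 8.71% of all tested genes. The median log2 change of the 53 was 0.05 against 0.06 over all genes. Ppp1r9a (3.47, adjusted p = 0.000687), Cobl, Asb4 (2.83, 0.00432), Smoc1 (1.88, 0.0271) and Gab1 (1.36, 0.013) were higher, and Osbpl5 was lower (-2.67, 0.0109). Kcnq1, a potassium channel gene, was higher too (adjusted p = 0.00236), from 0.9785 and 0.7484 CPM, 3 expected counts in all, to 22.19 and 23 CPM. Phlda2, a brake on placental growth, had no count in either D0 library and 66 over both D7 libraries (adjusted p = 0.0155). At D1 against D0 4 of the 53 were higher, among them Cdkn1c, a cell cycle inhibitor, from 230.4 and 137.7 CPM to 863.9 and 848.8 CPM (2.22, adjusted p = 0.0143), and 1, Zim1, was lower. 2 of these 4 and Zim1 were under 5.45 CPM in both libraries of their low day. With the block the D7 counts were 10 higher and 7 lower, 17 in all, and they are not read against the share of all genes either.

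Genes that keep or rewrite imprints were read in the same libraries. Of 24 listed, 23 were tested, and at D7 against D0 5 were higher and none lower. 3 of the 5 (Dnmt3b, Dnmt3l and Dppa3) were under 5.45 CPM in both D0 libraries and were tested only through the later days where they were high, so no count of this list is read against the share of all genes. Dnmt3b, a de novo methyltransferase, went from 4.893 and 0.7484 CPM to 184.7 and 78.19 CPM (5.38, adjusted p = 0.000464). Tet1 went from 7.828 and 8.981 CPM to 190.3 and 120.2 CPM (4.22, 0.00412), and Tet2 from 12.23 and 8.233 CPM to 104.8 and 49.28 CPM (2.90, 0.0158), both enzymes that oxidise methylcytosine. Dnmt3l, the cofactor of the de novo enzymes, and Dppa3, which protects imprints in the zygote, had no count at D0 and 383 and 156 over both D7 libraries (adjusted p = 0.0012 and 0.00653). Of the proteins that hold imprints, 3 that were picked after their values were seen lay nearer the threshold. Zfp57 went from 42.08 and 32.18 CPM to 120.3 and 63.74 CPM (1.31, adjusted p = 0.0537, and 0.00278 with the block), Trim28 from 401.2 and 532.1 CPM to 863.8 and 866.7 CPM (0.89, 0.0521, and 0.0155 with the block) and Uhrf1 from 99.81 and 158.7 CPM to 238 and 266.8 CPM (0.97, 0.0564, and 0.0176 with the block). Over any difference among the 5 days all 3 passed (adjusted p = 0.0157, 0.0174 and 0.0424). Dnmt1 went from a mean of 271.1 CPM at D0 to 335.9 CPM at D7, and Ctcf from 93.87 to 98.97 CPM. Zfp445 went from 98.74 to 88.91 CPM and Smchd1 from 132.3 to 101.2 CPM, and none of these was called in the main fit. Of the 23 tested genes of the list, 18 had a log2 change above 0 at D7 against D0 and 5 below. With the block the list had 10 higher and none lower at D7 against D0, which is not read against the share of all genes either.

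**Figure D5:**
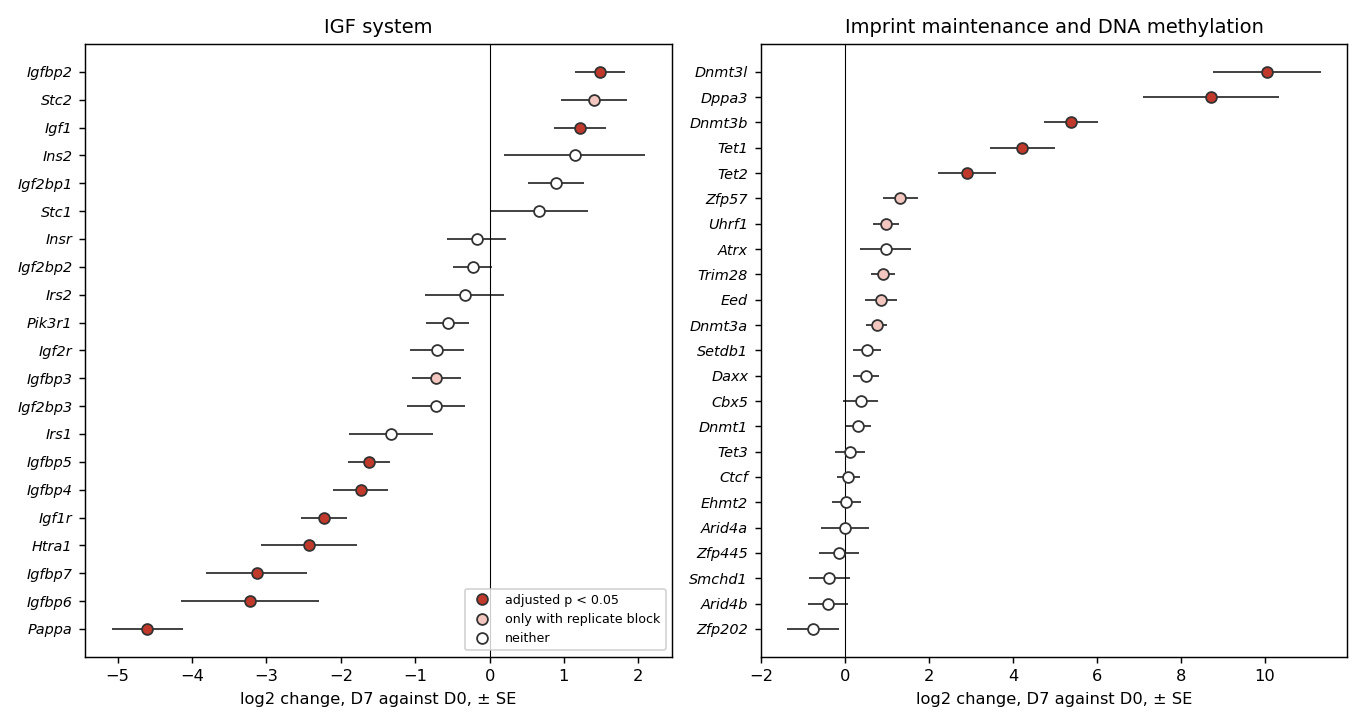
Log2 change at D7 against D0 with its standard error (horizontal lines) for the tested genes of the IGF system (left) and of imprint maintenance and DNA methylation (right); filled points passed an adjusted p of 0.05, pale points only with the replicate block. 7 IGF genes lie to the left as called and 2 to the right, whereas the 5 called genes on the right panel are all higher; the values of Dnmt3l and Dppa3, at 0 counts at D0, depend on the prior count and are no measured fold.

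Over the 10 libraries the log2 CPM of Ndn and Dlk1 had a Pearson r of 0.892, that of Dlk1 and Grb10 0.874 and that of Peg3 and Meg3 0.867, and Nnat ran against Grb10 with -0.902. These are descriptions over libraries that share days, depth and replicate numbers. The tested genes whose course was most like that of Meg3 were Zim1 (0.975), Fsd1 (0.952) and Rian (0.944), so that 2 of the 3 are imprinted themselves. For Peg3 they were Dlc1 (0.973), Fzd5 (0.939) and Arid5b (0.934), and for Dlk1 Prrx2 (0.976), Rcn3 (0.969) and S1pr3 (0.965). For Ndn they were Chst14 (0.976), Sh3bp5 (0.974) and Creb5 (0.971), and for Grb10 Smad9 (0.97), Sept8 (0.97) and Osbpl3 (0.967). Nnat was most like Lsr (0.99), Slc35f2 (0.982) and Dcpp2 (0.982), of which Dcpp2 has near-identical copies that share its reads. Mest was most like Hnrnpl (0.974), Rnf125 (0.973) and Car14 (0.966).

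4 of the 10 genes also carry miRNA hairpins: Mir675 in H19, Mir483 in Igf2, Mir335 in Mest, and Mir770 and Mir1906-1 in Meg3. These hairpin genes were listed at 0 counts in all 10 libraries, which measured messenger RNA and not small RNA.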

How the data were processed

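Messenger RNA was measured in 10 libraries, 2 on each of 5 days. The submitters' processing notes name bcl2fastq, Bowtie2, RSEM and the build mm10, and the sources used here give no versions, annotation or use of strand. Each sample's labels list 2 kits for library making and 2 for sequencing. Per the file headers the authors deposited RSEM tables of genes with expected counts (estimated, not normalised), TPM values and FPKM values; the deposited FPKM were not used. RSEM divides reads of overlapping or similar genes by estimation.

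The 10 genes and all lists were chosen with earlier results of these data known. Gene names and coordinates came from GENCODE M21 (GRCm38), which named 54723 of 54752 identifiers. Expected counts were rounded to whole numbers, scaled by TMM and filtered at a minimum count of 10, which left 12752 genes. edgeR 4.0.16 (quasi-likelihood F test, R 4.3.3) fitted all 10 libraries with a term per day, and p-values were adjusted by Benjamini-Hochberg over all tested genes, with a threshold of 0.05. A standard error is the log2 change divided by the root of F. CPM are expected counts over TMM-scaled library sizes, computed here, and the deposited TPM served for levels between genes and, as log2(TPM + 1), for limma 3.58.1. Alternatives were RLE scaling, no filter, a minimum count of 30, DESeq2 1.42.0, limma, only the libraries of the days compared, the replicate block, and each library left out in turn, where a lone library is assumed to vary like the others. The script was tested on simulated counts.

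The replicate numbers were read as the independent experiments of the series text. The difference between replicates 1 and 2 correlated across genes in all 10 pairs of days (r 0.273 to 0.436). The main fit had a term per day only and did not pair them, and the replicate block was the paired alternative. The replicate numbers also mark depth (replicate 2 had 1329377 to 1492105 expected counts) and fragment length (135.8 to 158.5 bases in replicate 1, 198.8 to 204.1 in replicate 2). The 2 libraries of a day never agreed within sampling noise (chi-square 6.92 to 22.5 per gene).

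Named from the other lists were the genes called at D7 against D0, up to 6 per list by size of change, and the tested neighbours of the 10 genes; for each of the 10 called in any comparison the 3 tested genes of highest r were named. Genes outside this rule (Igf1, Igf2r, Igfbp4, Igfbp5, Cdkn1c, Zfp57, Trim28, Uhrf1, Dnmt1, Ctcf, Zfp445 and Smchd1) were chosen after their values were seen.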

Additional observations from a re-analysis of the deposited data

How the results depend on the processing

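No change of direction occurred among the calls of the 10 genes under any alternative run. Limma on log2(TPM + 1) called 3 of the 10 at D1 against D0, where edgeR called 5. At D5 against D3 the test without a filter, the replicate block and DESeq2 each called 1 (Mest) in place of 0. At D7 against D3 the counts were 4 without a filter, 6 with the replicate block, 2 with only the libraries of the days compared and 3 in DESeq2, in place of 1. Leaving out each library in turn gave 2 to 6 calls at D7 against D0, 0 to 7 at D1 against D0, 0 to 1 at D5 against D3 and at D7 against D5, 0 to 2 at D7 against D3, 1 to 3 at D7 against D1 and 3 to 8 over the 5 days; D3 against D1 stayed at 0. For the single genes 1103 of the values under alternatives kept their direction and their side of the threshold, 45 passed it newly and 42 no longer passed. The replicate block changed no other call of the 10 genes than those given with their values above. Over all genes D7 against D0 had 2278 calls, 3629 with the replicate block, 924 without D0 replicate 1, 1015 without D0 replicate 2, 839 without D7 replicate 1 and 1463 without D7 replicate 2; D1 against D0 had 577, 1064 without a filter and 1350 with the block. TPM scaling moved the median log2 change of all genes by 0.207 at D7 against D5 and by 0.124 at D7 against D3. Library totals were 1329377 to 4335931 counts, and Zim1 and Mirg each had 15 expected counts over both D1 libraries. Between libraries of a day the spread exceeded sampling noise, as given with the processing.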
